A study of Mus musculus with 9 samples.

Results

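The 6 complex III assembly factors Uqcc1, Uqcc2, Uqcc3, Bcs1l, Lyrm7 and Ttc19 were followed across RNA sequencing of mouse myoblasts that lose the complex III subunit Uqcrfs1. They were found by symbol among the 55536 Ensembl genes of the count table, each symbol matched 1 gene, and all 6 passed the filter on low counts that left 15720 tested genes. The study asked for small molecules that help complex III-deficient muscle precursors to proliferate, and its sequenced cells were primary mouse myoblasts carrying floxed Uqcrfs1. There were 9 libraries of total RNA in 3 groups of 3. The first group was floxed cells given an adenovirus for green fluorescent protein and the DMSO vehicle. The second was knockout cells given an adenovirus for Cre recombinase and the vehicle. The third was the same kind of knockout cells given 7.5 µM oxybutynin, a muscarinic receptor antagonist, dissolved in that vehicle. Cells of every group were seeded 72 h after virus, treated 24 h later and kept for 5 days. No floxed cells with oxybutynin were analysed here, genotype and virus changed together, and neither the floxed exon nor the promoter driving Cre is stated in the labels. The labels do not say whether libraries of 1 group were grown as separate cultures, and p-values here describe no more than how these libraries vary, a spread that may be technical.

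Complex III passes electrons from ubiquinol to cytochrome c in the inner mitochondrial membrane. Its assembly starts with cytochrome b, which is encoded by mitochondrial DNA, and ends with the insertion of Uqcrfs1, the Rieske iron-sulphur protein. Uqcc1 and Uqcc2 form a pair that meets newly made cytochrome b at the mitochondrial ribosome, and Uqcc3 joins them on the early cytochrome b intermediate. The other three act on the Rieske protein: Lyrm7 is a LYR-motif chaperone that holds it in the matrix, Bcs1l is an AAA ATPase that moves the folded protein across the inner membrane into the nearly finished complex, and Ttc19 helps to clear its cleaved fragments from the assembled complex. In people, loss of function of these factors causes mitochondrial disease with complex III deficiency.

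The promoter windows of the members that passed the test against floxed cells are shown first, because Bcs1l and Ttc19 moved in opposite directions, and each of their starts lies close to that of a second gene whose reads are compared below. Each window runs from 250 bases before to 50 after the annotated start (RefSeq, build GRCm38.p6, 5′ to 3′ along the gene), and capitals mark the motif matches described after the sequences.
Bcs1l, chr1:74588039-74588338, plus strand: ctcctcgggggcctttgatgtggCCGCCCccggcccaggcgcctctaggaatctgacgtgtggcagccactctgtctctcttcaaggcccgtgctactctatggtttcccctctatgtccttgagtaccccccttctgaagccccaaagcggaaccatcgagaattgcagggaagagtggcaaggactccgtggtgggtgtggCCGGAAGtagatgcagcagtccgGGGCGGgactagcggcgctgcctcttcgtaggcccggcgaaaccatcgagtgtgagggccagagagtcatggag
Ttc19, chr11:62281223-62281522, plus strand: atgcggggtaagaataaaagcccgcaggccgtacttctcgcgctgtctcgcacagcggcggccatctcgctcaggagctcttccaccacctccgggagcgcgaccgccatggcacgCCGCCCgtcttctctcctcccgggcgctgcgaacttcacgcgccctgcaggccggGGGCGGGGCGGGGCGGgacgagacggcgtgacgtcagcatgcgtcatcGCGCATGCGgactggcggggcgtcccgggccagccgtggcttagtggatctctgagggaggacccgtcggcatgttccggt
Uqcc1, chr2:155930261-155930560, minus strand: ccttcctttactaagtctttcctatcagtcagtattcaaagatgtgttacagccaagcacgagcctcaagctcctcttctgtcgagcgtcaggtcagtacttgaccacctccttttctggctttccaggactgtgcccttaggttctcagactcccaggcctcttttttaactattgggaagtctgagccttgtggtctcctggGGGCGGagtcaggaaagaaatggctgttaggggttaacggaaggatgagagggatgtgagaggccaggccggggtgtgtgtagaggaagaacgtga
Uqcc2, chr17:27133842-27134141, minus strand: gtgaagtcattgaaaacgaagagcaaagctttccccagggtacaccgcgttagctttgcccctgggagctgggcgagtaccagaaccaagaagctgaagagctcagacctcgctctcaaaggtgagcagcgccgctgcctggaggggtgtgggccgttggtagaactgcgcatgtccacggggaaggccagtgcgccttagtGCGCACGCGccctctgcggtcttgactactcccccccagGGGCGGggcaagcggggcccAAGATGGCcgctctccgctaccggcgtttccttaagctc
Short motifs were searched on both strands; all 6 members had a window, and the background was 32851 RefSeq windows of the same length. The GC box GGGCGG was in 35.7% of all windows and in 5 of the 6 members' windows, all but that of Lyrm7. The Ttc19 window held 4 GC boxes, of which 3 lie in a row at 79, 74 and 69 bases before the start and share 1 base with the next. The ETS core CCGGAAG, present in 8.86% of windows, was in the Bcs1l window at 47 bases before the start. The NRF1 core GCGCANGCG, present in 6.25%, was in the windows of Uqcc2 at 48 and Ttc19 at 31 bases before the start. The YY1 core AAGATGGC, in 2.75% of windows, was at 11 bases after the start of Uqcc2, and the ERR monomer site AAGGTCA, in 4.72%, was at 137 bases before the start of Uqcc3. The ATF4 element core TGATGNAA, in 3.97% of windows, was in 0 of the 6, which says only that these letters are not in the windows. The 4 windows shown are 62% G or C with 18 CpG dinucleotides for Bcs1l, 70% with 40 for Ttc19, 51.3% with 7 for Uqcc1 and 62.7% with 21 for Uqcc2. Members that rose and the member that fell thus both had GC boxes, and Uqcc2 and Ttc19, called in opposite directions, both held the NRF1 core. A match in a window is a description of the letters and not evidence of binding.

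Library totals ran from 19604971 to 26226949 counts. Uqcrfs1 itself had 1539, 1781 and 1881 counts in the floxed libraries, 51, 51 and 70 in the knockout vehicle libraries and 71, 69 and 46 with oxybutynin. Each library thus matches its label as floxed or knockout. The knockout groups overlapped, so these counts cannot check the treatment part of the label. All 7 myoblast markers were above 1 CPM (counts per 1000000 after TMM scaling), with summed levels of 2908 to 3027 CPM in floxed, 2941 to 3760 in untreated knockout and 3645 to 3925 in oxybutynin-treated knockout libraries. Myf5 (means of 58.5, 44.8 and 36.0 CPM) and Cdh15 (190, 103 and 112 CPM) were lower in both knockout groups. Pax7, Myod1, Des and Vcam1 were higher in both, and Itga7 was lower only without oxybutynin. Fibroblast markers, 3 of 6 above 1 CPM and Lum at 0, summed to 8.40 to 9.86 CPM, 25.7 to 27.2 and 26.4 to 28.4 in the same order. Cd34 (means of 3.58, 17.6 and 18.9 CPM) gave most of this rise. Ly6a and Col15a1 were also higher in both knockout groups, and Pdgfra and Dcn were higher only without oxybutynin. Leukocyte markers, 1 of 4 above 1 CPM, summed to 5.21 to 5.96, 10.8 to 12.5 and 12.3 to 13.1 CPM. Cd68 gave most of this rise, with means of 4.74 CPM in floxed and 10.8 in untreated knockout cells. Itgam was also higher in both knockout groups, and Ptprc and Adgre1 were lower in both. Smooth muscle markers, 3 of 4 above 1 CPM, summed to 47.8 to 50.3, 37.4 to 43.5 and 30.3 to 32.1 CPM. Of these, Rgs5 was lower (means of 43.9, 32.4 and 23.2 CPM) and Myh11, Cspg4 and Pdgfrb were higher in both knockout groups. Markers of differentiating muscle, 6 of 6 above 1 CPM, summed to 1675 to 1952, 1502 to 1970 and 1548 to 1692 CPM, but their members differed: mean levels of Myh3 were 701, 214 and 176 CPM, of Myog 200, 136 and 143 CPM, and of Acta1 711, 1238 and 1143 CPM. Reads of mitochondrially encoded genes made up 3.07% to 3.14%, 1.95% to 2.71% and 1.58% to 2.12% of the library. Ribosomal RNA made up 7.70% to 8.33%, 7.63% to 11.8% and 10.8% to 14.0%, and the small nuclear RNA Rn7sk 1.93% to 2.10%, 2.36% to 3.59% and 3.36% to 3.98%. Knockout vehicle replicate 2 had the most mitochondrial reads and the least ribosomal RNA and Rn7sk of the 6 knockout libraries, closest to the floxed ones, and knockout vehicle replicate 3 correlated more closely with the oxybutynin libraries (0.992 to 0.993) than with its own group (0.990 and 0.986), so values that move with either are also given without it. The part of these markers and shares in the members' results was not tested. In bulk RNA, fewer cells of a type and less RNA per cell cannot be told apart.

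Per kilobase of exon, the members were at lower levels than the subunits Cyc1 and Uqcrc1. In floxed cells Ttc19 was highest at 8.04 ± 0.442 RPKM (SD, n = 3), followed by Uqcc3 at 6.67 ± 0.757, Bcs1l at 6.38 ± 0.330, Uqcc1 at 6.26 ± 0.364 and Uqcc2 at 5.91 ± 0.148, with Lyrm7 lowest at 1.49 ± 0.347. Libraries of Uqcc3, Bcs1l, Uqcc1 and Uqcc2 overlapped those of the next in this order, those of Ttc19 and Uqcc3 just did not, and Lyrm7 lay apart. In knockout vehicle cells the order changed to Bcs1l at 10.8 ± 0.724, Uqcc1 at 9.79 ± 0.165, Uqcc2 at 8.39 ± 1.71, Uqcc3 at 7.17 ± 2.59, Ttc19 at 4.51 ± 0.754 and Lyrm7 at 1.82 ± 0.059 RPKM. With oxybutynin it was Bcs1l at 12.6 ± 0.216, Uqcc2 at 10.8 ± 0.749, Uqcc1 at 9.60 ± 0.342, Uqcc3 at 8.42 ± 0.626, Ttc19 at 4.04 ± 0.517 and Lyrm7 at 1.84 ± 0.273 RPKM. Among untreated knockout libraries the neighbours from Uqcc1 down to Ttc19 overlapped and Bcs1l lay above them, while with oxybutynin no neighbours in the order overlapped, although Uqcc2 and Uqcc1 nearly touched. By exon length, Ttc19 went from first place to next to last and Bcs1l from the middle to first, while Lyrm7 was last in each group. The order depends on the length used. Exon and coding lengths are 5050 and 327 bases for Lyrm7 and 2192 and 1254 bases for Bcs1l. Per coding length, Bcs1l over Lyrm7 was 0.502 ± 0.109, 0.673 ± 0.0565 and 0.782 ± 0.104 in the 3 groups (SD, n = 3), so Lyrm7 was then not last. The catalytic subunit Cyc1 was at 51.0, 77.6 and 89.6 RPKM and Uqcrc1 at 30.0, 53.1 and 55.7 RPKM in the 3 groups in the same order.

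**Figure D1:**
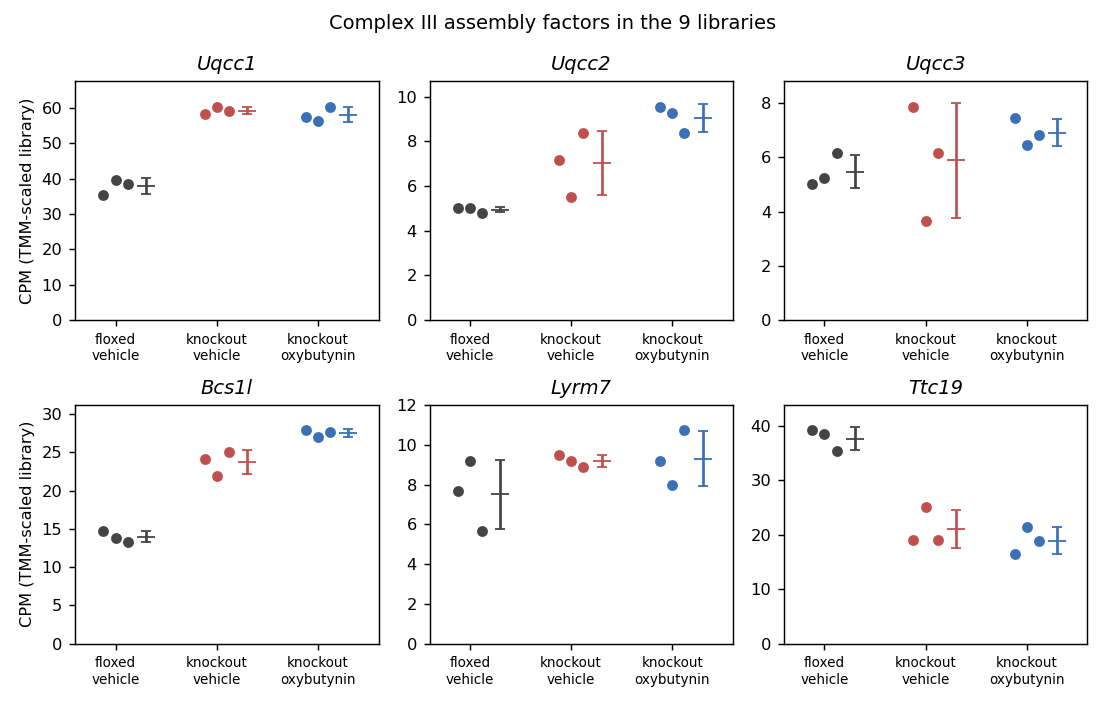
Level of each complex III assembly factor (y axis, CPM of the TMM-scaled library, linear from 0) in the 3 libraries of each group; points are libraries and the bars beside them are the mean and SD. Uqcc1 and Bcs1l are higher and Ttc19 lower in every knockout library than in every floxed library, and Uqcc3 and Lyrm7 overlap between floxed and knockout vehicle cells.

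Loss of Uqcrfs1 was followed by a mixed pattern among its assembly factors. In knockout vehicle against floxed vehicle cells, 3 of the 6 members rose (Bcs1l 1.70-fold, Uqcc1 1.56-fold, Uqcc2 1.42-fold), Ttc19 fell 1.78-fold, and Uqcc3 and Lyrm7 did not pass the test. Of the pair that acts on early cytochrome b both members rose, and of the 3 factors that handle the Rieske protein 1 rose, 1 fell and 1 was not called. Among all 15720 tested genes 29.9% were called higher and 33.4% lower, so being called is common in this comparison, and 3 and 1 of 6 are read against those shares. Fold changes are from edgeR's quasi-likelihood test on all 9 libraries, a gene is called at a Benjamini-Hochberg adjusted p under 0.05 over all tested genes, and errors of log2 fold changes are SEs.

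The early cytochrome b factors came as follows. Uqcc1 (ENSMUSG00000005882, chr2:155846894-155930310 on the minus strand, GRCm38) had 35.4, 39.5 and 38.6 CPM in the floxed libraries, 58.1, 60.1 and 59.2 in the knockout vehicle libraries and 57.4, 56.3 and 60.3 with oxybutynin. All 6 knockout libraries lay above all floxed ones and the knockout groups overlapped each other. The log2 fold change of knockout vehicle against floxed was 0.64 ± 0.08 (adjusted p = 2.59e-06).

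Uqcc2 (ENSMUSG00000024208, chr17:27122663-27133916, minus strand), the partner of Uqcc1, had 5.01, 5.02 and 4.80 CPM in floxed, 7.17, 5.52 and 8.38 in untreated knockout and 9.55, 9.28 and 8.36 in oxybutynin-treated knockout libraries. Floxed libraries were lowest, and knockout vehicle replicate 2 sat only just above them. Its log2 fold change was 0.51 ± 0.16 (adjusted p = 0.00874), and the counts behind it were small, from 98 to 236 per library. Without knockout vehicle replicate 3 it was 0.36 with an adjusted p of 0.0519, and the call was lost.

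Uqcc3 (ENSMUSG00000071654, chr19:8880014-8880923, minus strand), a small membrane protein with a single annotated transcript, had 5.01, 5.24 and 6.18 CPM in floxed, 7.87, 3.64 and 6.15 in untreated knockout and 7.47, 6.45 and 6.83 in oxybutynin-treated knockout libraries. Knockout vehicle replicate 2 was the lowest of the 9 and replicate 1 the highest. The log2 fold change against floxed was 0.10 ± 0.21 with a 95% interval from -0.34 to 0.53 (adjusted p = 0.698). Without knockout vehicle replicate 2 it was 0.36 with an adjusted p of 0.0424 and was called higher, and without knockout vehicle replicate 1 it was -0.12 with an adjusted p of 0.608, so single libraries set its sign and its call.

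Among the factors that handle the Rieske protein, Lyrm7 (ENSMUSG00000020268, chr11:54826866-54860916, minus strand) had 7.66, 9.19 and 5.69 CPM in floxed, 9.50, 9.20 and 8.91 in untreated knockout and 9.18, 7.99 and 10.7 in oxybutynin-treated knockout libraries. The floxed libraries spread most, and their highest value overlapped both knockout groups. The log2 fold change was 0.29 ± 0.16 with a 95% interval from -0.05 to 0.63 (adjusted p = 0.121). Without floxed vehicle replicate 2 it was 0.47 with an adjusted p of 0.0277, and without floxed vehicle replicate 3 it was 0.12 with an adjusted p of 0.524.

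Bcs1l (ENSMUSG00000026172, chr1:74588289-74592443, plus strand), the translocase of the Rieske protein, had 14.8, 13.8 and 13.3 CPM in floxed, 24.1, 22.0 and 25.1 in untreated knockout and 27.9, 27.0 and 27.7 in oxybutynin-treated knockout libraries. The 3 groups did not overlap. Its log2 fold change of 0.76 ± 0.10 (adjusted p = 2.46e-06) was the largest rise among the 6 members.

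Ttc19 (ENSMUSG00000042298, chr11:62281473-62328451, plus strand), which acts after the Rieske protein is in place, had 39.1, 38.4 and 35.3 CPM in floxed, 19.1, 25.1 and 19.0 in untreated knockout and 16.5, 21.4 and 18.8 in oxybutynin-treated knockout libraries. Every floxed library lay above every knockout library. Its log2 fold change was -0.83 ± 0.12 (adjusted p = 1.11e-05), and it was the one member called lower. In this comparison the ranges of 4 of the 6 members did not overlap, against 66.7% of all tested genes.

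The opposite directions of Bcs1l and Ttc19 changed their balance. Per exon length, as for all ratios in this paragraph, Ttc19 over Bcs1l was 1.24, 1.30 and 1.24 in floxed libraries. It was 0.371, 0.537 and 0.355 in knockout vehicle libraries and 0.278, 0.371 and 0.318 with oxybutynin. All knockout ratios lay below all floxed ratios, and the 2 knockout groups overlapped. These ratios are from counts in which the trend with GC content described below was not removed. With it removed, log2 fold changes of knockout vehicle against floxed were 0.52 for Bcs1l and -0.50 for Ttc19. Bcs1l over Lyrm7, the last 2 steps of Rieske delivery, was 4.43 ± 0.967 in floxed, 5.94 ± 0.499 in untreated knockout and 6.91 ± 0.922 in knockout oxybutynin cells (SD, n = 3). The rise of this ratio was not seen with the trend removed. Log2 fold changes of knockout vehicle against floxed were then 0.52 for Bcs1l and 0.72 for Lyrm7. With oxybutynin against floxed they were 0.65 and 0.90. Uqcc1 over Uqcc2, whose products work as a pair, was 1.06 ± 0.0723, 1.20 ± 0.273 and 0.891 ± 0.0944, and here floxed and knockout vehicle libraries overlapped.

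**Figure D2:**
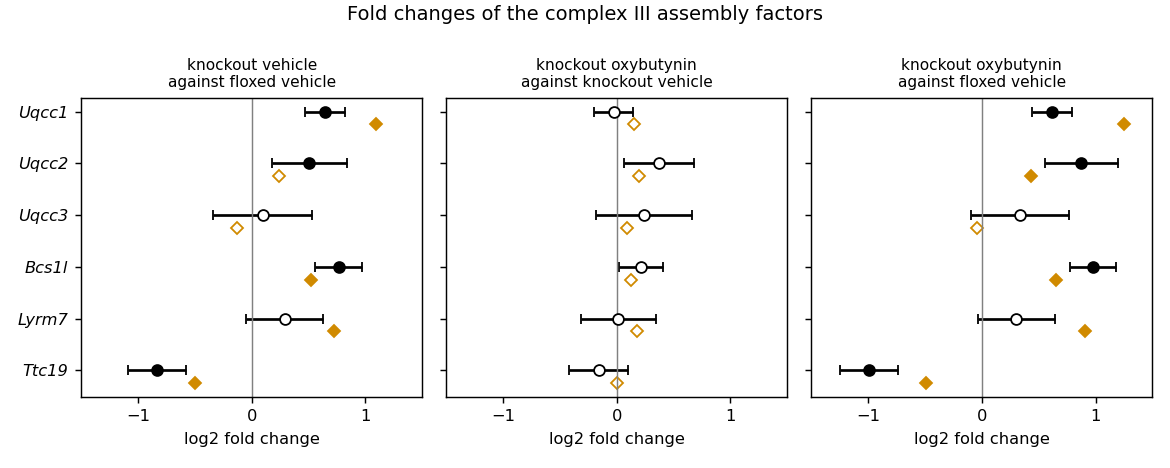
Log2 fold change (x axis) of each complex III assembly factor in the 3 comparisons; black circles with 95% intervals are from the counts as deposited and orange diamonds are from the same test after a trend with GC content and exon length was removed, and filled marks have an adjusted p under 0.05. Uqcc1, Bcs1l and Ttc19 are filled both ways in both comparisons with floxed cells, and none is filled in the comparison of the knockout groups.

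The fold changes of all genes followed GC content, and the members differ in it. Over 12976 protein-coding genes the Spearman correlation of the log2 fold change with the GC content of the longest transcript was 0.542 for knockout vehicle against floxed. Uqcc1, Lyrm7 and Ttc19 have 44.2%, 44.1% and 44.7% GC and fall in bin 3 of 10 equal bins of genes by GC, counted from the lowest, where the median log2 fold change was -0.28 and 14.8% of genes were called higher. Bcs1l, at 51.4%, falls in bin 6 with a median of 0.19. Uqcc2 and Uqcc3, at 53.6% and 52.6%, fall in bin 7, where the median was 0.27 and 49.8% were called higher. Uqcc1 was thus higher than most genes of its GC, and Uqcc2 was closer to the middle of its own.

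With the trend of GC content and exon length removed, 3 members were again called higher and 1 lower, but they were not the same genes. Over all genes, 28.3% were called higher and 30.8% lower under that setting. Counts of the other lists with the trend removed are read against these shares. Uqcc1 was 1.10 ± 0.07 (adjusted p = 1.36e-09) and Bcs1l 0.52 ± 0.08 (adjusted p = 2.15e-05), and Lyrm7 was now called at 0.72 (adjusted p = 0.000475). Uqcc2 was 0.24 and no longer called (adjusted p = 0.113). Ttc19 was still called lower at -0.50 (adjusted p = 0.000269). Whether the trend comes from the cells or from the libraries was not tested.

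**Figure D3:**
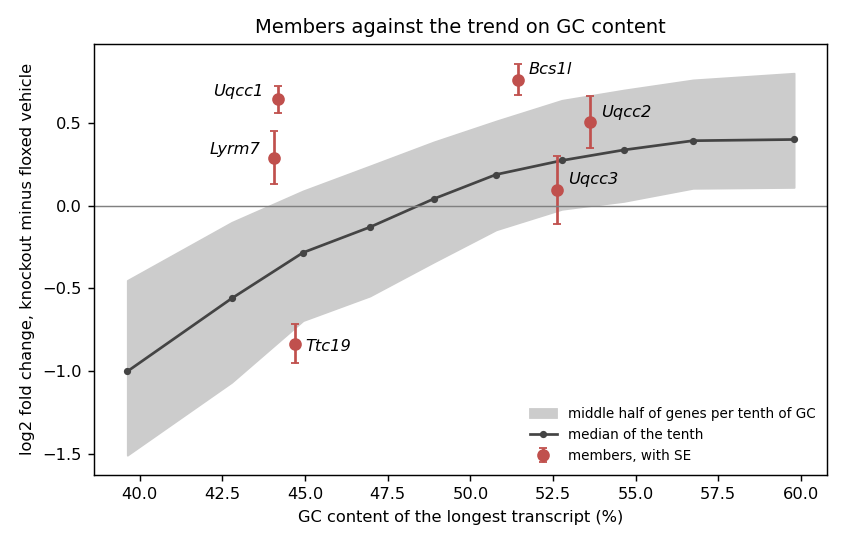
Log2 fold change of knockout vehicle against floxed vehicle cells (y axis) against GC content of the longest transcript (x axis, percent); the line joins the medians of 10 bins of the protein-coding genes, the shading spans their quartiles, and the labelled red points with SE bars are the 6 members. Uqcc1 (0.64) and Lyrm7 (0.29) lie above the quartiles of bin 3 (-0.70 to 0.09), and Ttc19 (-0.83) lies below them.

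Bcs1l and Ttc19 each start close to a gene on the other strand, and neither of these partners was called in the same direction as the member. Zfp142, a zinc-finger gene, starts 43 bases from Bcs1l, and its level was 59.2 ± 0.737 CPM in floxed, 55.5 ± 3.93 in untreated knockout and 62.6 ± 4.06 in knockout oxybutynin cells. Its log2 fold change of knockout vehicle against floxed was -0.09 ± 0.08 (adjusted p = 0.350), and -0.25 (adjusted p = 0.00774) with the GC and length trend removed. Counts of Bcs1l per count of Zfp142 were 0.253, 0.232 and 0.224 in floxed, 0.471, 0.390 and 0.425 in untreated knockout and 0.476, 0.433 and 0.415 in oxybutynin-treated knockout libraries. The rise of Bcs1l was thus also seen against its neighbour, with no overlap between floxed and knockout libraries.

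Zswim7, a DNA repair gene, starts 98 bases from Ttc19 and was at 6.19 ± 1.21, 7.17 ± 0.782 and 8.46 ± 0.279 CPM in the 3 groups. It was not called in knockout vehicle against floxed cells (0.21 ± 0.15, adjusted p = 0.245) but was higher with oxybutynin against floxed cells (0.44 ± 0.15, adjusted p = 0.0126; 0.04 with the GC and length trend removed). Ttc19 per Zswim7 count went from 6.26 ± 1.49 to 2.995 ± 0.837 and 2.23 ± 0.216 (SD, n = 3). Ncor1, a nuclear receptor corepressor gene on the other strand, runs over 12026 bases of the Ttc19 gene but shares only 1 base of exon with it. Ncor1 was at 284 ± 11.3, 142 ± 4.58 and 124 ± 2.21 CPM and fell by 1.00 ± 0.07 on the log2 scale in knockout vehicle cells (adjusted p = 3.11e-09). Ttc19 per Ncor1 count was 0.133 ± 0.0115, 0.148 ± 0.0208 and 0.152 ± 0.0221 in the 3 groups, and the ranges overlapped. Whether the counting used strand is not given, and if it did not, reads in exons common to both genes would be shared. Uqcc1, Uqcc2 and Uqcc3 overlap no annotated gene and have no other start within 1 kb; Lyrm7 overlaps the small RNA gene Gm25426, which had 0 counts, and Ttc19 also overlaps the pseudogene Gm12275, which was not tested.

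**Figure D4:**
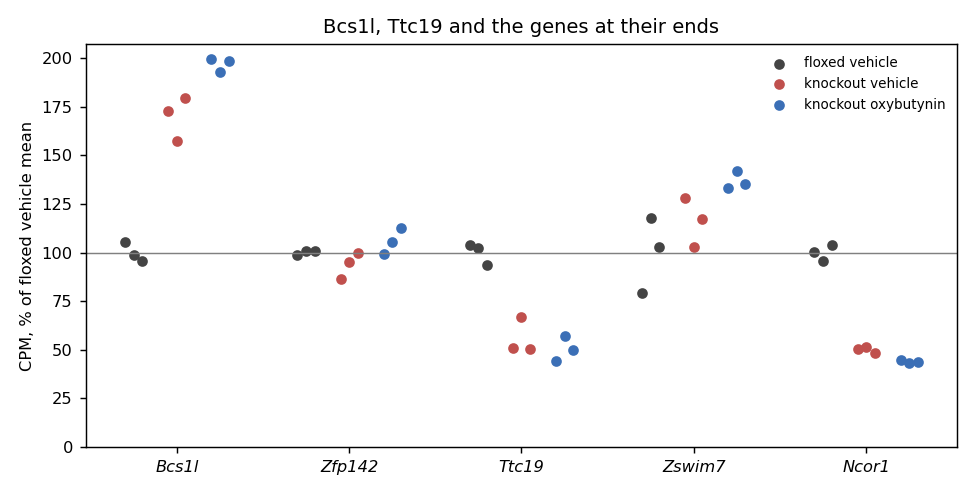
Bcs1l and Ttc19 and the genes that start beside or overlap them on the other strand, each library as a percent of the floxed mean of that gene (y axis), with points for libraries and a line at 100%. Bcs1l reaches 157% to 199% in the knockout libraries while Zfp142 stays between 86.5% and 113%, and Ttc19 and Ncor1 both fall below the floxed libraries while Zswim7 does not.

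No member passed the test between knockout cells with and without oxybutynin. With oxybutynin, 0 of the 6 members were called higher and 0 lower by edgeR's quasi-likelihood test, where 0.00636% of all tested genes were called higher and 0.00636% lower. DESeq2 and limma-voom also called 0 members, where they called 11.3% and 0.0191% of all the genes they tested. At an unadjusted p under 0.05 by edgeR there were 2 members, both higher with oxybutynin. The share of all tested genes at that level is not given here, so this count is not read as a result about the members. The 2 were Uqcc2 at 0.37 ± 0.15 (unadjusted p = 0.0216, adjusted p = 0.138) and Bcs1l at 0.21 ± 0.09 (unadjusted p = 0.0330, adjusted p = 0.161). Both had also risen in the knockout vehicle cells.

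The other four had intervals that included 0. Uqcc1 was -0.03 (95% interval -0.20 to 0.14), Lyrm7 0.01 (-0.31 to 0.34), Uqcc3 0.24 (-0.18 to 0.66) and Ttc19 -0.16 (-0.42 to 0.10). Bcs1l was the one member whose ranges did not overlap, against 22.1% of all tested genes. Without knockout vehicle replicate 3, Uqcc2 (0.52, adjusted p = 0.0200) and Bcs1l (0.26, adjusted p = 0.0467) were called higher, in a fit that called 26.0% of all genes. Without knockout vehicle replicate 2 they were 0.22 and 0.16 and not called (adjusted p = 0.401 and 0.373), and Ttc19 and Uqcc3 were both -0.01. Uqcc3 was 0.50 without knockout vehicle replicate 1 (adjusted p = 0.164). Fold changes of all genes followed GC content here too (Spearman correlation 0.690), and with the GC and length trend removed Uqcc2 was 0.19 and Bcs1l 0.13, with unadjusted p of 0.112 and 0.0998, and Ttc19 was 0.00.

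The knockout cells with oxybutynin differed from floxed vehicle cells in the same 4 members, and this comparison uses the same floxed libraries as the first one. Uqcc1 was 0.62 ± 0.08 (adjusted p = 3.11e-06), Uqcc2 0.88 ± 0.15 (adjusted p = 6.06e-05) and Bcs1l 0.98 ± 0.10 (adjusted p = 7.68e-08), which is 1.97-fold for Bcs1l and 1.83-fold for Uqcc2. Ttc19 was -0.99 ± 0.12 (adjusted p = 1.14e-06), a 1.99-fold lower level. Uqcc3 (0.33 ± 0.20, adjusted p = 0.148) and Lyrm7 (0.30 ± 0.16, adjusted p = 0.0955) were not called. Over all tested genes 35.1% were called higher and 36.9% lower.

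The ranges of 5 of the 6 members did not overlap here, all but Lyrm7, against 78.9% of all tested genes. Fitted on these 2 groups alone, Uqcc3 (0.37, adjusted p = 0.0126) and Lyrm7 (0.34, adjusted p = 0.0414) were also called higher. The Spearman correlation of all genes' fold changes with GC content was 0.635. With the GC and length trend removed, Uqcc1 was 1.25, Bcs1l 0.65, Uqcc2 0.43 and Ttc19 -0.49, all still called, Lyrm7 was called (0.90, adjusted p = 4.79e-05) and Uqcc3 was -0.04. Under that setting 29.8% of all genes were called higher and 32.2% lower.

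Other genes of complex III gave the setting for these values. Of its 9 nuclear subunits, 4 rose and 1 fell in knockout vehicle against floxed cells, with a median log2 fold change of 0.26, where the median over all tested genes was -0.01. The core subunit Uqcrc1 was 0.83 ± 0.11, Uqcrq 0.76 ± 0.11, the cytochrome c1 gene Cyc1 0.61 ± 0.09 and the core subunit Uqcrc2 0.42 ± 0.08, and the deleted Uqcrfs1 was -5.02 ± 0.14. Uqcrb (0.01), Uqcrh (-0.07), Uqcr10 (0.26) and Uqcr11 (0.25) were not called. With the GC and length trend removed Uqcrb was called at 0.95 (adjusted p = 3.31e-07) and Cyc1, at 0.13, was not. The members' own median was 0.40.

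Cytochrome b itself, the client of Uqcc1, Uqcc2 and Uqcc3 and the one subunit encoded in mitochondria (mt-Cytb), was -1.37 ± 0.10 (adjusted p = 3.70e-09), so transcripts of 2 of its early factors rose where its own fell. With the GC and length trend removed mt-Cytb was -0.32, and it fell together with the share of mitochondrial reads given above. Under that setting Uqcc1 was still called higher (1.10), but Uqcc2 was not called (0.24, adjusted p = 0.113). With oxybutynin against floxed cells, 5 of the 9 nuclear subunits were called higher and 1 lower, with a median of 0.50, and mt-Cytb was -1.53.

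Of 7 tested genes with further roles in making or maturing complex III, 4 rose and 1 fell (median 0.41). These were Cox7a2l, which joins complexes III and IV (0.58 ± 0.08), Pmpca and Pmpcb, the matrix processing peptidase that cleaves presequences (0.50 ± 0.07 and 0.58 ± 0.09), and Higd2a (0.41 ± 0.15). Hccs, which attaches haem to cytochromes c and c1, fell by 0.61 on the log2 scale. Uqcc5 (listed as Smim4, 0.19) and Higd1a (0.34) were not called. With the GC and length trend removed 5 were higher and 0 lower. Hccs was then 0.33, Uqcc5 was called at 0.61 (adjusted p = 0.0272) and Higd2a, at 0.16, was not (adjusted p = 0.261). In oxybutynin-treated knockout against floxed cells 4 were called higher and 1 lower, and 4 and 0 with the trend removed.

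The Rieske protein carries an iron-sulphur cluster, and genes of iron-sulphur cluster assembly and delivery in general were mostly higher. Of 14 tested, 10 rose and 1 fell (median 0.47), among them the co-chaperone Hscb (1.13 ± 0.16), the carrier Nfu1 (0.72 ± 0.09), the scaffold Iscu (0.64 ± 0.10) and the chaperone Hspa9 (0.63 ± 0.08), the genes of the list with the lowest adjusted p. With oxybutynin against floxed cells 10 were called higher and 0 lower by edgeR's quasi-likelihood test, where DESeq2 and limma-voom also called 0 lower and 10 had an unadjusted p under 0.05. With the GC and length trend removed, 9 of these genes were higher and 2 lower without oxybutynin (median 0.33), and 9 and 1 with it. Glrx5 was then called lower without oxybutynin (-0.38, adjusted p = 0.00228), and Nfs1 was 0.10 and not called. The LYR and AAA families, to which Lyrm7 and Bcs1l belong, had called members in both directions. Among 10 LYR-motif genes other than Lyrm7, 2 rose and 1 fell (median 0.15; Lyrm4 0.38 ± 0.11, Ndufa6 0.29 ± 0.12 and Etfrf1 -0.27 ± 0.11), and 4 and 1 in the oxybutynin comparison with floxed cells. With the GC and length trend removed 4 LYR genes were higher and 0 lower: Etfrf1 turned to 0.60 (adjusted p = 2.92e-05) and Ndufa6 was -0.04 and not called. Among 10 mitochondrial AAA proteins other than Bcs1l, 5 rose and 3 fell (median 0.30). The protease Lonp1 (1.69 ± 0.09) and the disaggregase Clpb (0.85 ± 0.09) had the lowest adjusted p among those that rose. Among those that fell these were another protease, Yme1l1 (-1.51 ± 0.11), and the extractase Atad1 (-0.68 ± 0.10). With the trend removed Yme1l1 was -0.36 and Atad1 turned to 0.33 (adjusted p = 0.00159), and 4 AAA genes were higher and 2 lower. The same counts, 5 and 3, were found with oxybutynin against floxed cells.

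Assembly factors of complexes I and IV and of ATP synthase also had called genes in both directions. In knockout vehicle against floxed cells, 7 of 15 complex I factors rose and 3 fell (median 0.31), among them Ecsit (0.76 ± 0.11) and Ndufaf3 (0.94 ± 0.16) higher and Ndufaf4 (-1.04 ± 0.10) lower. For complex IV it was 8 higher and 4 lower of 19 (median 0.27), with Surf1 (0.89 ± 0.11), Taco1 (0.76 ± 0.10) and Coa3 (0.64 ± 0.10) among those that rose, and for ATP synthase 3 higher and 1 lower of 6 (median 0.16). Of 4 complex II factors, 0 were called by edgeR, DESeq2 or limma-voom, and 1 had an unadjusted p under 0.05. With the GC and length trend removed the counts were 10 higher and 1 lower for complex I (Ndufaf4 then -0.12 and not called), 9 and 1 for complex IV, 2 and 1 for ATP synthase and 3 and 0 for complex II, and 4 and 0 for complex II with oxybutynin against floxed cells. These stand beside 3 higher and 1 lower of the 6 complex III factors, and whether the lists differ was not tested. With oxybutynin against floxed cells the counts were 7 and 3, 8 and 3, 2 and 2, and 1 and 0 in the order of complexes I, IV, ATP synthase and II.

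Between the knockout groups none of the 91 other tested genes of these lists was called by edgeR's quasi-likelihood test or by limma-voom. At an unadjusted p under 0.05 there were 22, and the share of all tested genes at that level is not given here. DESeq2 called 1 higher and 6 lower, where it called 11.3% of all the genes it tested.

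**Figure D5:**
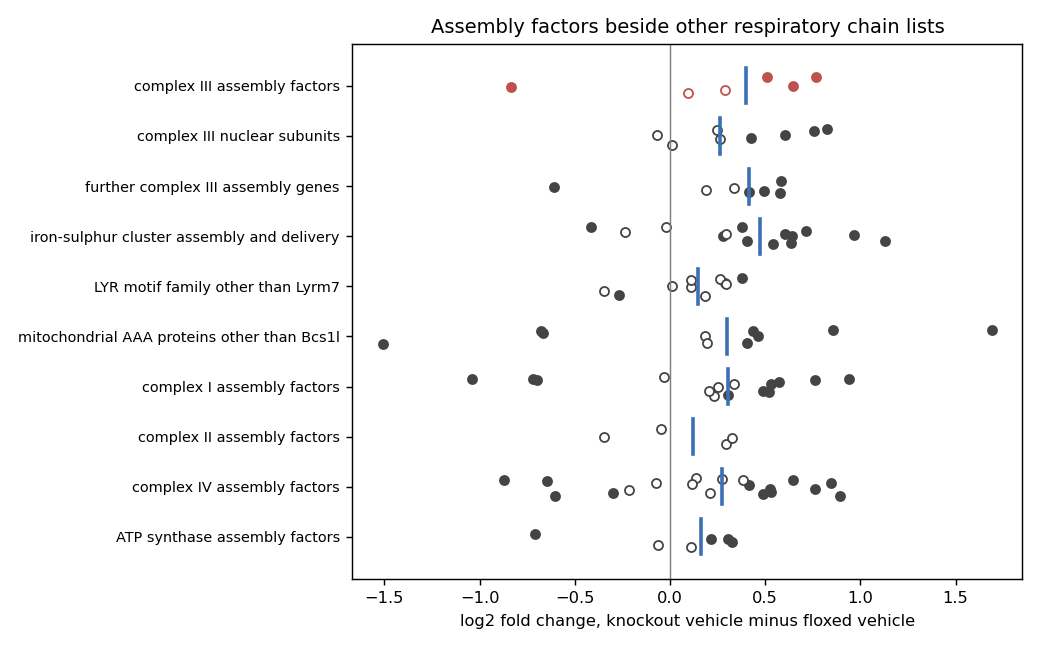
Log2 fold change of knockout vehicle against floxed vehicle cells (x axis) for the genes of each list (rows); each point is a gene, filled when its adjusted p is under 0.05, the blue bar is the list median, Uqcrfs1 is counted in its median but not drawn, and mt-Cytb is left out. The complex III assembly factors (red) have a median of 0.40 and, like the assembly factors of complexes I and IV, points on both sides of 0.

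Across the 9 libraries the members differed in how closely they ran together. On log2 CPM, Bcs1l and Ttc19 ran opposite to each other (Pearson r = -0.962, n = 9 libraries), Uqcc1 went with Bcs1l (0.936) and against Ttc19 (-0.924), and Uqcc2 went with Bcs1l (0.926) and against Ttc19 (-0.913). Uqcc1 and Uqcc2, whose products pair, had r = 0.780. Uqcc3 and Lyrm7 had r = 0.0920 with each other, 0.413 and 0.630 with Bcs1l, and -0.550 and -0.569 with Ttc19. These 9 points share the group differences above, so they describe the same pattern and are given without a test.

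Among 8841 protein-coding genes of mean at least 10 CPM, the most alike in pattern were Srr and Eci2 for Uqcc1 (r = 0.995 and 0.995 over 9 libraries) and Nab2, Agpat4 and Tom1l2 for Bcs1l (0.998, 0.997 and 0.997). For Uqcc2 they were Tada3, 1700037H04Rik and Recql5 (0.996, 0.994 and 0.994), and for Ttc19 Epc1, Ptbp2 and Crebbp (0.993, 0.992 and 0.991). Such likeness is common: 1578, 2336, 1955 and 2251 genes had r over 0.9 with Uqcc1, Bcs1l, Uqcc2 and Ttc19. Uqcc3 was most like Psmc3, Rps21 and Glrx3 (0.981, 0.977 and 0.964) and had 61 genes over 0.9. For Lyrm7, Clns1a, Pcdhga7 and Sec22a came first (0.842, 0.838 and 0.827) and 0 genes passed 0.9; reads of Pcdhga7 can be shared with other genes of its cluster, so its place is uncertain.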

How the data were processed

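RNA was extracted with Trizol and made into directional NEBNext libraries, per the labels' protocols. The authors deposited raw counts, whole numbers for each gene without normalization. The submitters' processing notes name Trim Galore 0.6.0, cutadapt, FastQC, STAR 2.7.0e, DESeq2 1.26.0 and GRCm38 (mm10). How reads were assigned to genes, with which annotation and whether by strand, is not stated there. Tests used edgeR 4.0.16 (R 4.3.3) on the unchanged counts: filterByExpr on the 3 groups (minimum count 10, 15720 genes kept), TMM scaling, and glmQLFit and glmQLFTest on all 9 libraries with 1 mean per group, no covariate and 6 residual degrees of freedom. The Benjamini-Hochberg adjustment ran over all tested genes. CPM and RPKM use the TMM-scaled library, RPKM also the union exon length of GENCODE M21 (GRCm38), in which all 55536 IDs were found. The trend on GC content (longest transcript) and exon length was removed with splines of 5 degrees of freedom in each, taken from every library. The fitting script was tested on simulated data.

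The members and the gene lists were chosen with earlier results of these data known, so their counts are descriptions. The 11 lists (the members; nuclear subunits, cytochrome b and further assembly genes of complex III; iron-sulphur assembly; LYR family; mitochondrial AAA proteins; assembly factors of complexes I, II, IV and ATP synthase) held 102 genes, of which 3 (Uqcc4, Uqcc6 and Coa1) were not matched and are not analysed here. Named were the members and complex III genes, up to 4 called genes with the lowest adjusted p per other list, the 3 genes most alike to each member (mean of at least 10 CPM; 1 of them is not reported here), and genes overlapping a member or starting within 1 kb. Alternatives included DESeq2 1.42.0, limma 3.58.1 (voom), other scalings and filters, and leaving out each library. Library pairs of a group differed by more than sampling noise.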

Additional observations from a re-analysis of the deposited data

How the results depend on the processing

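No called fold change of a member reversed against floxed cells in the 19 alternatives run for each; Uqcc3, which was not called, changed sign with the GC and length trend removed (-0.13 without and -0.04 with oxybutynin) and, without oxybutynin, without knockout vehicle replicate 1 (-0.12). Uqcc1 (0.59 to 1.10), Bcs1l (0.52 to 0.82) and Ttc19 (-0.97 to -0.50) kept their calls in all 19 for knockout vehicle against floxed, and Uqcc1 (0.57 to 1.25), Uqcc2 (0.43 to 0.94), Bcs1l (0.65 to 1.03) and Ttc19 (-1.08 to -0.49) did so with oxybutynin. The number of members called higher in knockout vehicle against floxed was 2 to 4 when each library was left out in turn, and 3 to 4 in knockout oxybutynin against floxed; the number called lower was 1 throughout. In the latter comparison 5 were called higher with no filter on low counts (adding Uqcc3 at 0.39 and Lyrm7 at 0.35, adjusted p = 0.0406 and 0.0378) and 5 when only these 2 groups were fitted. Lyrm7 was also called without floxed vehicle replicate 2 (0.48, adjusted p = 0.0203) and without knockout oxybutynin replicate 2 (0.41, adjusted p = 0.0479), but was 0.14 without floxed vehicle replicate 3 and 0.20 without knockout oxybutynin replicate 3 (adjusted p = 0.459 and 0.322), and Uqcc3 without knockout vehicle replicate 2 (0.34, adjusted p = 0.0279). Between the knockout groups 0 to 2 members were called higher, 2 of them without knockout vehicle replicate 3. The causes were not tested.

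Over all genes, the knockout oxybutynin against knockout vehicle comparison called 1 higher and 1 lower with edgeR as reported, 187 and 949 of 10027 with DESeq2, 10 and 148 with library totals as the only scaling, 277 and 822 with no filter, 2 and 5 with RLE scaling, 1873 and 2315 without knockout vehicle replicate 3, 12 and 51 without knockout vehicle replicate 2, and 0 and 0 with the GC and length trend removed. No paired analysis was possible because the libraries are numbered through and the groups share no replicate number. Uqcc2, Uqcc3 and Lyrm7, with 87 to 239 counts per library, have the widest intervals, and leaving out knockout vehicle replicate 2 lowered the SE of Uqcc3 from 0.21 to 0.15.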
